A study of Mus musculus with 24 samples.

Results

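The comparison set the Gcn5 null clone 6_C4 against the floxed clone 6_1, which together form isolate pair 6 of the series. Histone H3 acetylated at lysine 9 (H3K9ac) was profiled by ChIP-seq in embryoid bodies at day 5 of differentiation, the aggregates that embryonic stem cells form when they leave self-renewal. Both clones are of strain C57BL/6 per the labels. Clone 6_1 is Gcn5fx/fx, with both Gcn5 alleles floxed, and clone 6_C4 is Gcn5-/-. All 4 libraries of the pair were used, 2 replicates of each clone, out of 8 H3K9ac libraries and 24 samples in the series. Overlapping peaks of these 4 lists merged into 24640 regions, against 26034 when all 8 lists were merged. A region was lost when both 6_1 lists and neither 6_C4 list held a peak in it, and gained in the reverse case. Each genotype of the pair is a single clone, so an effect of the deletion and a difference between clones cannot be told apart. The labels number the replicates without naming separate cultures, so p-values measure only the spread between these libraries. The gene lists were chosen with earlier results of these data known.

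Gcn5, encoded by Kat2a, is a lysine acetyltransferase that works inside the SAGA and ATAC co-activator complexes, and H3K9 is among its best known substrates. H3K9ac marks active promoters and enhancers, and its domains are broad at some strongly transcribed genes. The series title ties Gcn5 to FGF signalling through c-Myc. FGF ligands bind receptor tyrosine kinases that drive the RAS-ERK cascade, which helps embryonic stem cells leave pluripotency and is held in check by feedback inhibitors of the Sprouty and Dusp families.

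Promoters at which only 1 of the 2 clones had peaks are shown first, since the presence of a peak is what the comparison scored. Each sequence is the 250 bases before a RefSeq transcription start (GRCm38.p6, the build whose primary sequence is mm10), read 5′ to 3′ on the gene's strand, with every CG in capitals. The first 5 genes had an end peak in both 6_1 libraries and in neither 6_C4 library.
Fgf10 promoter, chr13:118714449-118714698, plus strand: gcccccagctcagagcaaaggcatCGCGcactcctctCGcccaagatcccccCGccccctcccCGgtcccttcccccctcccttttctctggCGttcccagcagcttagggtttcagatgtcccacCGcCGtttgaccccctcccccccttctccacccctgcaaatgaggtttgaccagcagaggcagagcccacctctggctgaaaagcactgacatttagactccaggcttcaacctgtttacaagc
Fgfr4 promoter, chr13:55152568-55152817, plus strand: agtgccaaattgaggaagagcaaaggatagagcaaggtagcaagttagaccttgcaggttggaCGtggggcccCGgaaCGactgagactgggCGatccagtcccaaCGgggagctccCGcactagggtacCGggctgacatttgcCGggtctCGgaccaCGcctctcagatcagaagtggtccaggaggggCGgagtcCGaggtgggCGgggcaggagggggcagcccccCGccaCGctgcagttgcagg
Ackr3 promoter, chr1:90203730-90203979, plus strand: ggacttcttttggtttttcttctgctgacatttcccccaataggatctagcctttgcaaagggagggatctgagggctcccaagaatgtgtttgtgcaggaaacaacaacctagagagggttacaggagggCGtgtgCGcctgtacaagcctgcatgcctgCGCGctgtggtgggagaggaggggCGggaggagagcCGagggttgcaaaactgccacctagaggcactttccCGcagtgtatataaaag
Pcdh18 promoter, chr3:49757317-49757566, minus strand: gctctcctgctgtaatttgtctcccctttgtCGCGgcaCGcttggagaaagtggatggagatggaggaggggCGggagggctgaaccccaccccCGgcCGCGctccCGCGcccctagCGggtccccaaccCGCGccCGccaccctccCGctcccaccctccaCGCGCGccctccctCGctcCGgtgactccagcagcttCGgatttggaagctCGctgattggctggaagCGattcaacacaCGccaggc
Grb10 promoter, chr11:12037421-12037670, minus strand: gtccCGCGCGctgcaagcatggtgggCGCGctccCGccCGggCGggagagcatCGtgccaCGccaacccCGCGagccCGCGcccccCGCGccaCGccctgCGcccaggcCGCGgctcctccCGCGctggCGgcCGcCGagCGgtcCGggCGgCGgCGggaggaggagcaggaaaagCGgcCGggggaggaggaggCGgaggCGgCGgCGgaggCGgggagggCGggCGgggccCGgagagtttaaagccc
The next pair had an end peak in both 6_C4 libraries and in neither 6_1 library.
Fam124a promoter, chr14:62555487-62555736, plus strand: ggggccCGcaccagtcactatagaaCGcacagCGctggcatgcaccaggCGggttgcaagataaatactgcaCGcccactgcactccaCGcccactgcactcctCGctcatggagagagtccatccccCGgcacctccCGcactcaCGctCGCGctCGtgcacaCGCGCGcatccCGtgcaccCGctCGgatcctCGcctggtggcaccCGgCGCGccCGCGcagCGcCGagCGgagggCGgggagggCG
Itga11 promoter, chr9:62677605-62677854, plus strand: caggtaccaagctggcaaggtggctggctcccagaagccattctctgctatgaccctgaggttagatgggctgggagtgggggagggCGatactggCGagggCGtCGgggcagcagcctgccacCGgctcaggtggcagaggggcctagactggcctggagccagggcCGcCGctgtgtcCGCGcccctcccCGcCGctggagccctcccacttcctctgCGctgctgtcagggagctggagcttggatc

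These promoters differ in CpG content. The 250 bases held 8 CG in Fgf10, 15 in Fgfr4, 7 in Ackr3, 23 in Pcdh18 and 40 in Grb10. Fam124a held 30 and Itga11 12. Over the first listed promoter of 17492 protein-coding genes the median was 10 CG per 250 bases, with quartiles of 3 and 19, and 92.7% held at least 1. Of the lost promoters shown, Pcdh18 and Grb10 lay above the upper quartile and the others between the quartiles. The letters CACGTG, the E-box that Myc and Max can bind and a palindrome that reads the same on both strands, were in none of the 7 windows shown. They occur in 6.64% of all promoter windows of this length. The 7 windows are a selection and give no rate for lost genes. Over promoter entries of 300 bases, CACGTG was in 10 of the 113 lost genes with an entry (8.85%). Among all protein-coding genes with an entry the share was 7.90%. It was 10.4% in genes with an end peak in all 4 libraries and 4.25% in genes with none in any of the 4. Of the 153 lost genes 113 (73.9%) had an entry, against 79.9% of all protein-coding genes, and genes without an entry are left out. The median per 300 bases was 12 CG in lost and 16 in gained genes. It was 22 in genes with an end peak in all 4 libraries and 13 in all genes. These differences were not tested.

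The 6_C4 libraries had less of the genome under H3K9ac peaks than the 6_1 libraries. Replicates 1 and 2 covered 44.3 and 43.9 Mb in 6_1, and 39.4 and 36.5 Mb in 6_C4. Both null libraries were below both floxed ones, and the means were 44.1 ± 0.284 Mb and 37.9 ± 2.07 Mb (SD, n = 2 each), a difference of -6.19 Mb or -14.0%. The exact two-sided permutation test gave p = 0.333, the smallest p that 2 libraries against 2 allow. Within isolate pair 4 the same difference was -3.09 Mb, with overlapping groups.

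Peak width differed between the clones, and peak number less so. Peak numbers were 20809 and 18477 in 6_1 and 18932 and 17849 in 6_C4, so the groups overlapped (19643 ± 1649 against 18390.5 ± 766, SD, n = 2 each, exact permutation p = 0.667). The width of the median peak was 1809 and 2056 bp in 6_1, and 1796 and 1778 bp in 6_C4. The groups did not overlap, yet 6_1 replicate 1 lay closer to the null libraries than to its own replicate (1932.5 ± 175 against 1787 ± 12.7 bp, exact permutation p = 0.333). Without 6_1 replicate 2 the difference of -145.5 bp became -22.0 bp, and without 6_1 replicate 1 the difference of -1252.5 peaks became -86.5. Depth is unknown for all 4 lists, and the part of depth in these widths and lengths was not tested.

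**Figure D1:**
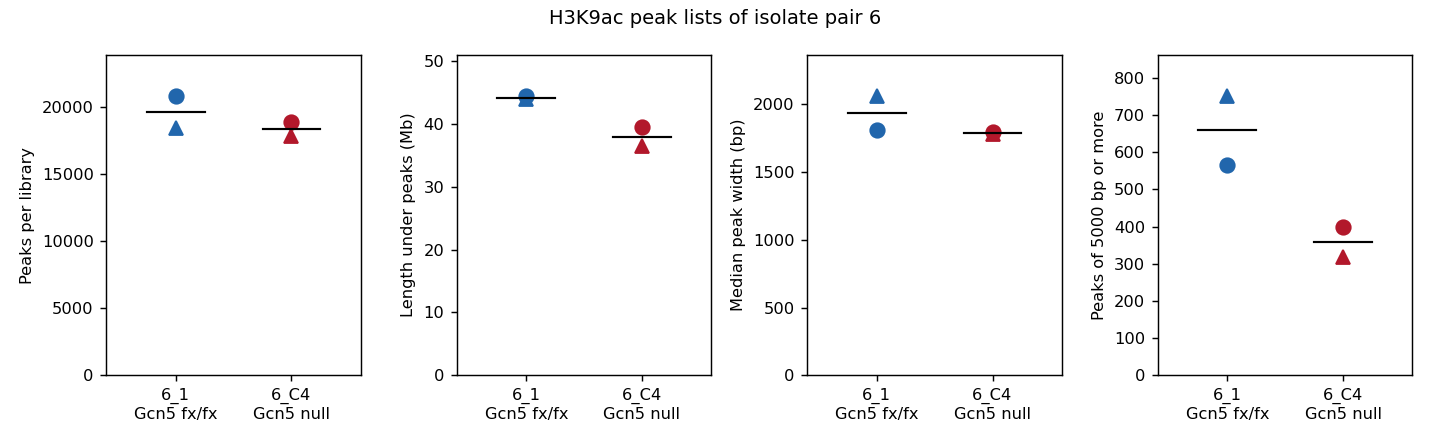
Peak number, covered length in Mb, median peak width in bp and number of peaks of 5000 bp or more in the 4 lists of isolate pair 6; circles are replicate 1, triangles replicate 2 and lines clone means. Covered length separates the clones (44.3 and 43.9 Mb against 39.4 and 36.5 Mb), whereas peak numbers overlap.

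The covered length was split by the pattern of the regions, a division made after seeing the data. Regions in all 4 lists numbered 13976, and narrower peaks in them accounted for -3.66 Mb of the difference (59.2%). Lost regions accounted for -0.941 Mb (15.2%), and gained regions added 0.266 Mb in 6_C4. The remaining 9770 regions, mostly found in 1 or 3 lists, accounted for -1.85 Mb (29.9%). Most of the covered length that 6_C4 lacked was therefore at places both clones marked.

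That narrowing was spread over regions of every width. Regions that also had a peak in all 4 lists of pair 4 were ranked by their pair 4 width, which the pair 6 values do not enter, and divided into 10 groups of 1018. In the group of the narrowest regions the uncentred median log2 change of covered length, 6_C4 minus 6_1, was -0.12, and 77.6% of regions were below 0. In the group of the widest regions the values were -0.11 and 83.0%. All 10 medians lay between -0.12 and -0.09.

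Broad domains, which H3K9ac forms at some highly active genes, were fewer in 6_C4. Peaks of 5000 bp or more, a limit chosen after seeing the data, numbered 567 and 750 in 6_1 and 399 and 319 in 6_C4. Both null libraries were lower (658.5 ± 129 against 359 ± 56.6, SD, n = 2 each, -45.5%, exact permutation p = 0.333). In pair 4 they numbered 164 and 133 in clone 4_1 and 157 and 54 in clone 4_C2, and the groups overlapped. There were 102 regions with at least 5000 bp covered in both 6_1 libraries and in neither 6_C4 library, and 0 with the reverse pattern. Of the 102, 90 lay at a gene end (88.2%), as did 75.7% of all regions in all 4 lists. The latter were narrower, with a median of 2339.5 bp in 6_1. A wide region reaches a gene end window more readily, so these shares are not matched for width. Leaving out each library in turn, the mean difference of -299.5 broad peaks ranged from -391 to -208.

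The broadest domain of the pair lay over Gdf3, a TGF-beta family ligand expressed in pluripotent cells, and the neighbouring mRNA editing gene Apobec1. It spans chromosome 6, 122593272 to 122612279, and covered 19008 and 15925 bp in 6_1 against 9418 and 12430 bp in 6_C4. Both null values were below both floxed ones, but the centred log2 difference of -0.54 ± 0.20 (SE) had a limma adjusted p of 0.861. At Mybl2, a cell cycle transcription factor of the Myb family, 10585 and 12803 bp were covered in 6_1 and 7806 and 7360 bp in 6_C4 (limma adjusted p = 0.655). At Morc3, a nuclear matrix ATPase, the values were 7645 and 7319 bp against 4031 and 2425 bp (limma adjusted p = 0.537). These 3 domains were picked for their large loss of covered base pairs, so their values are a description. Other domains of this size hardly differed: the one over Ifi30, Pik3r2 and Mast3 covered 17630 and 16964 bp in 6_1 and 16110 and 15573 bp in 6_C4.

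No single region passed the test for width. Widths were the log2 base pairs covered in each library, centred on the library median. Library medians were lower in 6_C4 by a mean of -0.14 on the log2 scale, and centring moved the difference in the median region from -0.12 to 0.02. Among 13976 regions in all 4 lists, limma with Benjamini-Hochberg adjustment at 0.05 called 0 narrower and 0 wider (0% each), and the lowest adjusted p was 0.404. At an unadjusted p under 0.05 limma had 548 narrower (3.92%) and 252 wider (1.8%). Without centring, those counts were 1398 and 43, so the share of narrower regions among them moved from 68.5% to 97.0%.

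Among the regions with the lowest p was the end of Gsk3a, which encodes a kinase that restrains Wnt signalling (chromosome 7, 25234415 to 25239790). There 4657 and 5180 bp were covered in 6_1 and 1935 and 2092 bp in 6_C4. The clones did not overlap, with a centred log2 difference of -1.14 ± 0.12 (limma adjusted p = 0.409). In pair 4 the same region covered 2262 and 2254 bp in 4_1 and 2653 and 1714 bp in 4_C2, so the groups overlapped there. A region at the ends of Rasgrp2, a RAS family exchange factor gene, and Nrxn2, a synaptic adhesion gene, covered 2860 and 2888 bp in 6_1 and 1174 and 1131 bp in 6_C4 (-1.17 ± 0.10, limma adjusted p = 0.404). No pair 4 list had a peak there.

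Spred2, an inhibitor of RAS-ERK signalling, had such a region inside the gene, away from its ends (chromosome 11, 19986266 to 19990075). It covered 3726 and 3481 bp in 6_1 and 1352 and 1316 bp in 6_C4, a difference of -1.29 ± 0.11 (limma adjusted p = 0.404), with no peak in pair 4. Rundc3a, a gene expressed in neurons, had 1855 and 2249 bp in 6_1 and 848 and 734 bp in 6_C4. In pair 4 it had 1814 and 1937 bp in 4_1 and none in 4_C2, so null libraries were lower in both pairs. The other regions of the 6 with the lowest p for narrowing lay inside Zfp607b (2670 and 2837 bp against 1098 and 882 bp) and 8348 bp from Btn2a2 (2463 and 2693 bp against 1053 and 984 bp).

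In the opposite direction, the region shared by Cnih2, which encodes an AMPA receptor auxiliary subunit, and Rab1b, a secretory pathway GTPase, covered 1436 and 1742 bp in 6_1 and 2870 and 2879 bp in 6_C4 (1.01 ± 0.12, limma adjusted p = 0.409). Capza2, which encodes an actin capping protein subunit, had 2304 and 2233 bp in 6_1 and 3386 and 3518 bp in 6_C4. Maoa, the monoamine oxidase A gene, had 1709 and 1898 bp against 2734 and 2602 bp. Bak1, a pro-apoptotic member of the BCL2 family, had 1757 and 1919 bp against 2574 and 2605 bp. Tulp1 had 1305 and 1418 bp against 2198 and 2652 bp. All of these were wider in both null libraries without passing the test.

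**Figure D2:**
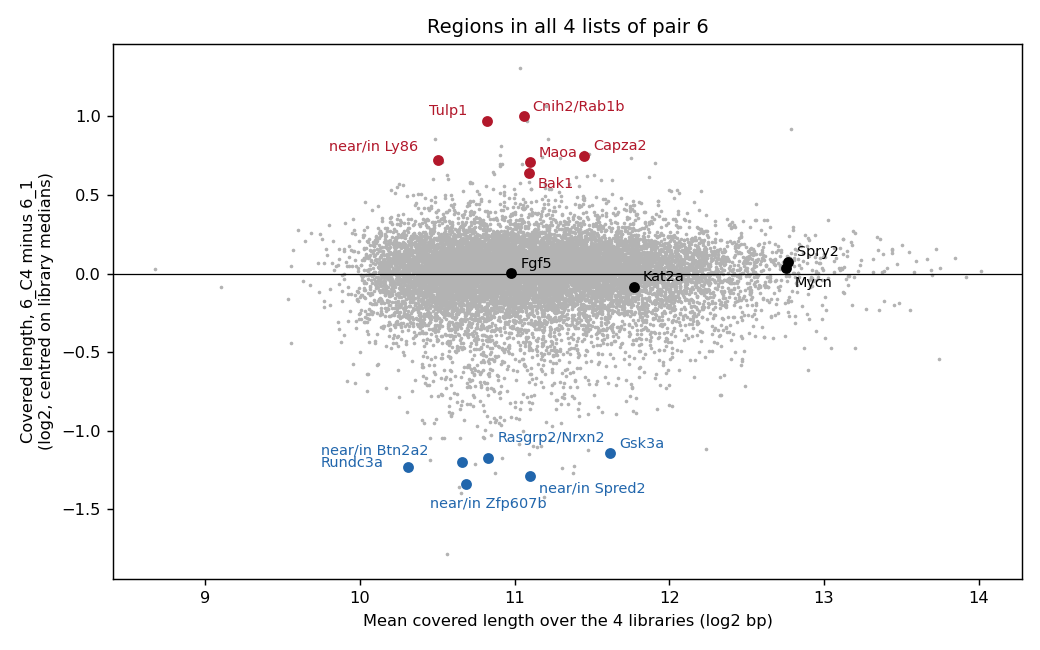
Centred log2 difference in covered length, 6_C4 minus 6_1, against mean log2 covered length in bp for the 13976 regions in all 4 lists; blue and red points are the 6 regions per direction with the lowest p and black points 4 genes of interest. Narrower regions reach further from 0 than wider ones (Gsk3a at -1.14), and Fgf5 and Mycn lie near 0.

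Whether the width of single regions changed otherwise in this pair than in pair 4 was tested with limma. The term was the interaction of genotype and isolate pair, over the 10171 regions in all 8 lists. Centring removes a shift of whole libraries, and the presence of a peak is not scored. The fit therefore could not test the lower covered length or the lost and gained regions. The interaction called 0 regions (0%), with 677 at an unadjusted p under 0.05 and a lowest adjusted p of 0.208. Gsk3a headed the regions lower in pair 6, with centred log2 differences of -1.16 in pair 6 and 0.06 in pair 4 (limma adjusted p = 0.307). Denr, a translation reinitiation factor gene, had -0.86 and 0.23 (limma adjusted p = 0.344). In the other direction Slc29a1, a nucleoside transporter gene that shares its region with Mymx, had -0.01 in pair 6 and -1.41 in pair 4. Slc7a5, an amino acid transporter gene, had 0.17 and -1.20, and Ago1, an Argonaute gene, had 0.03 and -1.54 (limma adjusted p = 0.208 for all 3).

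Presence and absence of peaks differed at few regions. Of the 24640 merged regions, 677 were lost in 6_C4 (2.75%) and 217 were gained (0.881%), a count with no test. Lists of equal length, made of the widest peaks of each library, gave 466 lost and 275 gained, which moved the share of lost regions among both from 75.7% to 62.9%. Replicates of a clone were no more alike than the clones: the Jaccard index, regions in both lists over regions in either, was 0.732 between the 6_1 replicates and 0.729 between the 6_C4 replicates. Between clones it ranged from 0.697 to 0.750. The excess of lost over gained regions also hung on 6_C4 replicate 2, since without it 1137 regions were lost and 1581 gained. Gained then needed 1 list only, and lost still needed 2.

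Lost regions were mostly away from gene ends, defined as windows reaching 1000 bp to each side of the start and end coordinates of 21887 protein-coding genes. Among regions at gene ends 178 of 12830 were lost (1.39%), against 306 of 8018 inside genes (3.82%) and 193 of 3792 outside genes (5.09%). Gained regions numbered 56, 126 and 35 in these classes. The lost regions were narrow, with a median of 1296 bp in 6_1 and a maximum of 3702 bp, whereas regions in all 4 lists had a median of 2339.5 bp in 6_1. Gained regions had a median of 1155 bp in 6_C4. Of gene end regions 82.5% were in all 4 lists, of those inside genes 27.2% and of those outside genes 32.0%.

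Most lost regions were not marked in pair 4 at all. No pair 4 list held 483 of them (71.3%), against 35.6% of all merged regions. Both 4_1 lists held 37 (5.47%), against 49.2% of all merged regions. In pair 4, 17 were lost too (2.51%), against 1.90% of all merged regions. Only regions in both 4_1 lists can be lost there. Counted among those, 17 of 37 lost regions were lost in pair 4 too, against 468 of 12115 merged regions. This difference was not tested, and the sets were not matched for width. Of the 12115, 11638 were in all 4 pair 6 lists. Regions in all 4 lists had a median of 2339.5 bp in 6_1, against 1296 bp in lost regions. Of the gained regions 142 (65.4%) were in no pair 4 list, and 0 were gained there.

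The 5 widest lost regions away from gene ends had no pair 4 peak. The gene table used gives no exons, so exonic and intronic sites could not be told apart. The first, inside Ankrd11, a chromatin regulator gene (chromosome 8, 122902409 to 122906260), covered 3552 and 3852 bp in 6_1. Others lay inside Rrp1b, a nucleolar protein gene (2493 and 4399 bp), and inside Etl4 (3445 and 2759 bp). The remaining regions of the 5 widest lay 35183 bp from Csnk1a1, the casein kinase 1 alpha gene (2878 and 3577 bp), and 20576 bp from Wnk2 (2738 and 3255 bp). All 5 were at 0 in both 6_C4 and all pair 4 libraries.

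Counted by gene, 12914 and 12635 genes had an end peak in the 6_1 libraries and 12502 and 12331 in the 6_C4 libraries. Both null libraries were lower, with a mean difference of -358 genes (12774.5 ± 197 against 12416.5 ± 121, SD, n = 2 each, exact permutation p = 0.333). Of 13454 genes with an end peak in at least 1 library, 11726 (87.2%) had it in all 4. Lost genes, with an end peak in both 6_1 and neither 6_C4 library, numbered 153 (1.14%), and gained genes 39 (0.29%). With lists of equal length the counts were 103 and 66, so the share of lost genes among both moved from 79.7% to 60.9%. Of the lost genes 64 (41.8%) had no end peak in any pair 4 library, 21 had it in both 4_1 libraries (13.7%) and 10 were lost in pair 4 as well (6.54%). Over all 13454 genes these shares were 6.91%, 82.5% and 1.83%.

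The lost genes with the longest cover at their ends had varied roles. Bcl6b, an endothelial transcriptional repressor gene (chromosome 11, 70224127 to 70229798), had a region of 2500 and 2613 bp in 6_1 and none in 6_C4. In pair 4 it had 0 and 938 bp in 4_1 and 0 and 1674 bp in 4_C2. It headed the lost genes, with 2000 bp covered in its end windows in both 6_1 libraries. Ackr3, an atypical receptor that scavenges the chemokine CXCL12 (chromosome 1, 90203980 to 90215724), had 3277 and 2126 bp at its start in 6_1 and none in 6_C4. It was also lost in pair 4, with 1026 and 1840 bp in 4_1. Irx6, an Iroquois homeobox gene, had 2106 and 2069 bp in 6_1 and no peak in any other library of either pair.

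Slc18a3, the vesicular acetylcholine transporter gene nested in the Chat locus, had 1178 and 2013 bp over its start in 6_1, and Chat, which makes acetylcholine, was lost with it through the same region. Pde4c, a cAMP phosphodiesterase gene, had 2098 and 1726 bp and was unmarked in pair 4. Cd37, a tetraspanin gene of lymphocytes, had 3229 and 2688 bp at its left end, in a region that also reaches Tead2 and leaves out the RefSeq start of Cd37. Fbxl22 was lost by its end windows (1600 and 1556 bp in 6_1), though the region that it shares with Usp3 stayed in all lists at 4830, 4946, 2280 and 2854 bp. Evpl, Npff, Praf2 and Spata45 complete the 15 lost genes with the longest cover, together with 4 protocadherins.

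The protocadherins are cell adhesion proteins, and the clustered gamma genes share a common 3′ end but have their own first exons. Pcdh18 (chromosome 3, 49743291 to 49757383) had 1477 and 1688 bp at its start in 6_1 and none in 6_C4, and 1435, 1618, 1293 and 0 bp in the 4_1 and 4_C2 libraries. Pcdhga2, Pcdhga3 and Pcdhgc4 were lost at their left ends, with 1252 and 1147, 944 and 1069, and 1182 and 1212 bp in 6_1. Of the 21 gamma cluster genes, looked at after these were seen, 14 had an end peak in more 6_1 than 6_C4 libraries and 1 in more 6_C4 libraries. Because these genes share the right end, a single peak there counts for many of them, and the 21 are not independent. Many of the 14, such as Pcdhgb1 and Pcdhgb2, were marked in 6_1 replicate 1 alone (1001 and 1003 bp). All 21 had an end peak in both 4_C2 libraries and 4 in both 4_1 libraries, a count that a shared right end peak can give. At the lost left end regions pair 4 did not run the other way. In the 4_1 and 4_C2 libraries Pcdhga2 had 1154, 957, 1011 and 0 bp there. Pcdhgc4 had 1151, 0, 0 and 1033 bp, and Pcdhga3 had no peak.

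Gained genes were fewer. Tagln, which encodes the actin-binding protein transgelin (chromosome 9, 45929628 to 45936058), had 1525 and 1121 bp in 6_C4 and none in 6_1, and in pair 4 1024 bp in 4_C2 replicate 1 alone. Lmod1, a smooth muscle leiomodin gene, had 1118 and 1092 bp just beyond its right end, and Itga11, a collagen-binding integrin gene, had 1447 and 1055 bp at its start. Layn, a hyaluronan receptor gene, had 1735 and 1116 bp, and Pitx1, a hindlimb homeobox gene, 1011 and 1069 bp. Fam124a, whose promoter is shown above, had 1516 and 1096 bp in 6_C4. In pair 4 it had 1265 and 1158 bp in 4_1 and 1291 and 0 bp in 4_C2, so 6_1 was the only clone of the 4 without a peak in either library. Pik3r5, Ramp3, Cda and Slc12a5 complete the 10 gained genes with the longest cover. Slc12a5 had 1558 and 1389 bp in its end windows in 6_C4, while the widest region at its right end was present in all 4 lists.

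**Figure D3:**
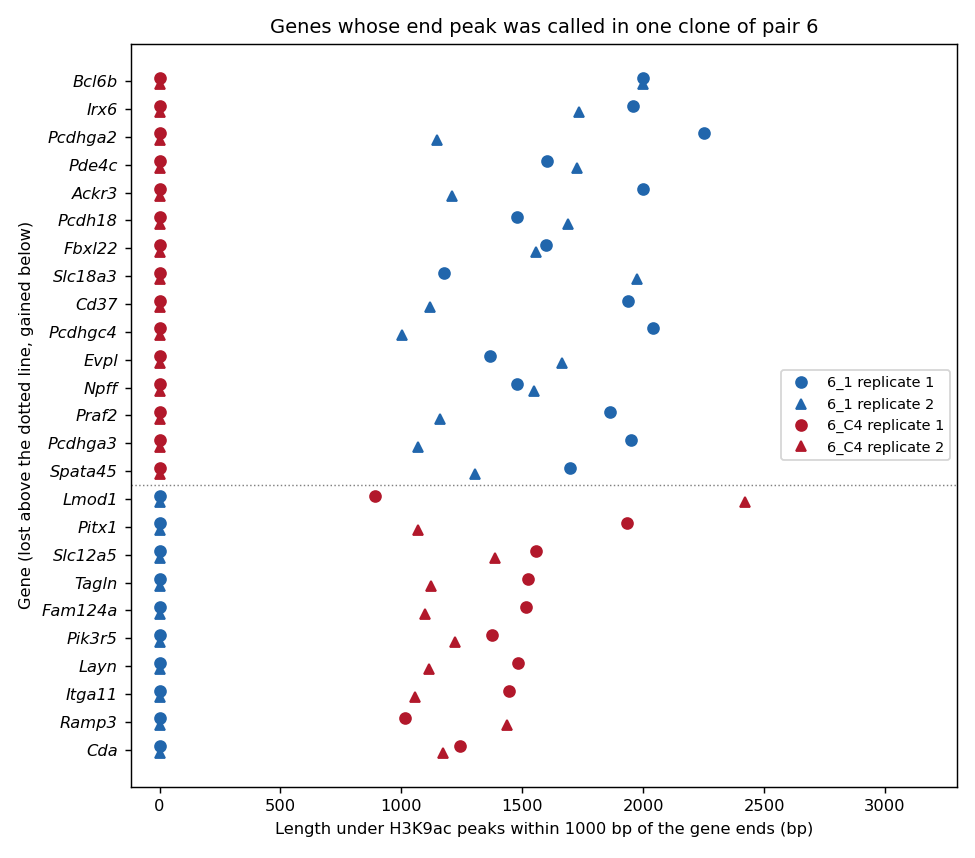
Base pairs under peaks within 1000 bp of the gene ends in each of the 4 libraries (blue 6_1, red 6_C4; circles replicate 1, triangles replicate 2) for the 15 lost and 10 gained genes with the longest cover. The rule places the opposite clone at 0, and replicates of the marked clone differ by up to 892 against 2423 bp at Lmod1.

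Genes of the study's question were mostly marked in every library. Kat2a itself (chromosome 11, 100704746 to 100712485) had a region, shared with Hspb9 and Rab5c, of 4024 and 3558 bp in 6_1 and 3209 and 3258 bp in 6_C4. Both null values were lower, though not after centring beyond error (-0.08 ± 0.13, limma adjusted p = 0.921), and a peak at the promoter of the targeted gene does not check its deletion. Kat2b, the paralogue of Gcn5, had 3784 and 5440 bp in 6_1 and 5258 and 2736 bp in 6_C4. Myc had 4848 and 4677 bp in 6_1 and 4338 and 3690 bp in 6_C4 (-0.11 ± 0.12, limma adjusted p = 0.898). Mycn had 7163 and 7149 bp against 6639 and 6666 bp. In pair 4 the Myc region covered 3577 and 2145 bp in 4_1 and 1383 and 0 bp in 4_C2. All 13 Myc network genes, 33 of 33 SAGA and ATAC subunit genes and 78 of 78 cytosolic ribosomal protein genes had end peaks in pair 6, and 13, 32 and 78 of them in all 4 libraries. Over all 13454 genes with an end peak, 87.2% had it in all 4 libraries and 1.14% were lost. Of the 33 Myc target and ribosome biogenesis genes with an end peak, Ccnd2, the cyclin D2 gene, was lost at its end windows. Its region, 2665 and 2353 bp in 6_1, was still 1344 and 1905 bp in 6_C4.

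Among FGF ligands 11 of 16 with an end peak had it in all 4 libraries (68.75%), and 1 was lost (6.25%). For all genes with an end peak these shares were 87.2% and 1.14%, and the difference was not tested. Fgf10, a ligand of limb and lung budding (chromosome 13, 118714699 to 118792573), had 1209 and 1079 bp over its start in 6_1 and none in 6_C4. In pair 4 it had 781 bp in 4_1 replicate 2 and 855 bp in 4_C2 replicate 1. Fgf20 and Fgf22 had a peak in 1 6_1 library each, and Fgf1 in 1 6_C4 library. The FGF ligands of early embryos were marked throughout. Fgf4 covered 4883 and 3862 bp in 6_1 and 3831 and 3379 bp in 6_C4. Fgf5, a marker of the primed epiblast, covered 2080 and 2164 bp against 1902 and 1945 bp, and Fgf8 2637 and 2120 bp against 1869 and 1699 bp. All 3 had null libraries below floxed ones before centring. After centring the differences were -0.13 ± 0.17, 0.00 ± 0.10 and -0.26 ± 0.16, none past the limma threshold (adjusted p = 0.910, 0.997 and 0.876).

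Fgfr4 (chromosome 13, 55152818 to 55168759) was lost among the 8 FGF receptor and co-receptor genes with an end peak, with 1340 and 1464 bp over its start in 6_1 and none in 6_C4. In pair 4 it had 1037 bp in 4_1 replicate 1 and 1127 bp in 4_C2 replicate 1. Fgfr1, the main receptor of embryonic stem cells, covered 3517 and 4079 bp in 6_1 and 3453 and 3826 bp in 6_C4. Frs2, the adaptor between FGF receptors and RAS, covered 5295 and 4639 bp against 2011 and 2982 bp, with both null libraries lower (-0.87 ± 0.23, limma adjusted p = 0.655). Of 22 feedback and target genes of the pathway 21 were marked in all 4 libraries and 0 were lost. Spry2 covered 7191 and 7095 bp in 6_1 and 6886 and 6732 bp in 6_C4, and Dusp6 5219 and 6308 bp against 5862 and 4980 bp. All 31 marked genes of the RAS, ERK and p38 cascade were marked in all 4 libraries. Of all genes with an end peak 87.2% had it in all 4 libraries and 1.14% were lost. No member of any list passed the limma threshold, as no gene did. Over all 11875 genes with a tested region the median centred log2 difference was 0.03, and the median was 0.00 for FGF ligands, 0.08 for receptors and 0.07 for feedback genes. Without centring these 3 medians were -0.141, -0.059 and -0.078, so their sign rests on the centring.

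Markers of pluripotent cells and of the epiblast held their peaks in both clones. Of 4 pluripotency markers (Pou5f1, Nanog, Sox2 and Zfp42) and 4 primed epiblast markers (Fgf5, Otx2, Dnmt3b and Pou3f1), all were marked in all 4 libraries. Pou5f1, the core pluripotency factor gene, covered 6989 and 8376 bp in 6_1 and 7591 and 4451 bp in 6_C4, and the groups overlapped. Otx2, an epiblast and forebrain homeobox gene, covered 6127 and 5757 bp against 5729 and 5987 bp. Nanog covered 3241 and 4242 bp against 3172 and 3037 bp, with both null values lower and a centred difference of -0.11 ± 0.15 (limma adjusted p = 0.909). Of 22 pluripotency genes with an end peak 0 were lost, against 1.14% of all genes with an end peak. Dppa2, Prdm14 and Nr0b1 had an end peak in both 6_1 libraries and in 6_C4 replicate 1 alone. Dppa2, for instance, had 1094 and 1896 bp in 6_1 and 973 and 0 bp in 6_C4.

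Lists of lineage genes held more genes with unequal marking. Across all 13454 genes, 1013 (7.53%) had an end peak in more 6_1 than 6_C4 libraries and 411 (3.05%) in more 6_C4 libraries. For neuroectoderm genes the counts were 7 and 0 of 26, and 3 were lost: Rfx4, a neural tube transcription factor gene (1105 and 1216 bp in 6_1), Ncam1, the neural cell adhesion gene (1051 and 2527 bp), and Rtn1, a neuronal reticulon gene (1396 and 1581 bp). Rfx4 and Rtn1 were put in the list with their loss already known, so the count is not independent evidence of a direction. In pair 4 both of these were lost as well. The loss of Rtn1 concerns its annotated ends. The 250 bases before another RefSeq start inside the gene (chromosome 12, 72236728 to 72236977) lay under peaks in all 4 libraries of pair 6. Pax6, an eye and forebrain homeobox gene, had 1129 bp in 6_1 replicate 1 and none elsewhere.

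For primitive streak and mesoderm genes the counts were 7 and 1 of 21, with 0 lost. Mesp1, a cardiac mesoderm factor gene, had 1256 and 1086 bp at its ends in 6_1 and 0 and 1198 bp in 6_C4. Hand1 had 2011 and 874 bp against 755 and 0 bp, and Snai1 997 and 1323 bp against 1310 and 0 bp. T, the brachyury gene, had 0 and 1230 bp in 6_1 and 750 and 0 bp in 6_C4, so its peak was called in 1 library of each clone. Cdx2 ran the other way, with 2028 and 0 bp in 6_1 and 1076 and 906 bp in 6_C4. The 6_C4 library without a peak was replicate 1 for Mesp1 and replicate 2 for Hand1 and Snai1. For Hox genes the counts were 7 and 4 of 22, and for endoderm genes 3 and 2 of 16. The endoderm markers did not move together. Sox17, an endoderm factor gene, had 522 and 510 bp at its ends in 6_1 and 1603 and 1683 bp in 6_C4, while its whole region covered 2528 and 2612 bp against 2137 and 2730 bp, with overlapping groups. Foxa2, a forkhead factor gene, had 1469 and 1361 bp at its ends against 719 and 1164 bp, and Cxcr4, a chemokine receptor gene, 1136 and 1723 bp against 866 and 802 bp, both lower in both null libraries. Gata6 had 1583 and 1316 bp against 0 and 1184 bp.

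Cadherin and imprinted genes were also compared by list. Of 16 cadherin and protocadherin genes outside the clusters, 5 had an end peak in more 6_1 and 0 in more 6_C4 libraries, and 3 were lost: Cdh7 (1490 and 1474 bp in 6_1), Pcdh17 (1113 and 1160 bp) and Pcdh18. Cdh7 and Pcdh17 were lost in pair 4 as well. Of 21 imprinted genes 6 had it in more 6_1 and 0 in more 6_C4 libraries. Grb10, an imprinted adaptor that dampens insulin and IGF signalling (chromosome 11, 11930499 to 12037428), had 1300 and 1351 bp over its start in 6_1 and none in 6_C4. It was lost in pair 4 too, from 1991 bp in both 4_1 libraries. Phlda2, an imprinted placental growth inhibitor gene, had 1278 and 1294 bp in 6_1, and Kcnq1, a potassium channel gene of the same imprinted domain, 1254 and 1113 bp. In pair 4 Phlda2 had 915, 1052, 1326 and 0 bp in the 4_1 and 4_C2 libraries, and Kcnq1 had a peak in 4_C2 replicate 1 alone. Among genes whose end peak was not in all 4 libraries, the share with more 6_1 libraries was 58.6% over all genes, 77.8% in the neuroectoderm list, 77.8% in the streak list, 83.3% in the cadherin list and 66.7% in the imprinted list. These lists hold 9, 9, 6 and 9 such genes, and the difference from all genes was not tested. Other lists lay on both sides of the share over all genes. It was lower in the Hox (53.8%), Wnt (54.5%), trophoblast (57.1%) and actin (37.5%) lists. In the endoderm, FGF ligand and germ cell lists it was 60%. The fibroblast list, with defining markers mostly at 0, had 80%, so a high share was not particular to the lists named first.

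Actin and contractile genes were more evenly divided, with 3 of 31 marked in more 6_1 and 4 in more 6_C4 libraries. Besides Tagln, Myl9, a smooth muscle myosin light chain gene, had 0 and 1463 bp at its ends in 6_1 and 1565 and 1406 bp in 6_C4. Tmsb4x, the thymosin beta 4 gene, was lost by the rule with only 34 and 329 bp inside its window in 6_1, and its region was present in all 4 lists. Markers of fibroblasts, which could come from feeder cells, were not higher in 6_C4. Col1a2 and Col3a1 were at 0 in all 4 libraries, Col1a1 had 780 bp in 6_1 replicate 2 alone, and the summed cover of the 4 markers was 1147 and 1905 bp in 6_1 and 896 and 0 bp in 6_C4. The 4 trophoblast markers were at 0 in every library. Summed cover of the 4 neuroectoderm markers was 7277 and 7029 bp in 6_1 and 6294 and 6385 bp in 6_C4, with both null libraries lower. Its members differed. Nes (1829 and 1874 against 1633 and 1287 bp) and Sox1 (3068 and 3084 against 3058 and 2738 bp) were lower in both null libraries. Hes5 overlapped (1726 and 2071 against 1603 and 2360 bp), and Pax6 was marked in 6_1 replicate 1 alone. Covered length of the whole library also differed, by -14.0%. The sums overlapped between the clones for blood and endothelial markers (2613 and 2008 bp against 2238 and 1301 bp, with Gata1 and Cdh5 at 0) and for endoderm markers (4710 and 4910 bp against 3188 and 4833 bp). The part of cell composition in the neuroectoderm differences was not tested, and in bulk chromatin fewer cells of a type and fewer marked alleles per cell cannot be told apart.

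The remaining lists gave small counts. Of 39 Wnt pathway genes 6 had an end peak in more 6_1 and 3 in more 6_C4 libraries, and Dkk3, a Dickkopf family gene, was lost with 1213 and 934 bp in its region in 6_1, though all 4 pair 4 libraries had the peak. Of 35 Nodal, TGF-beta and BMP genes 34 were marked in all 4 libraries, as were 26 of 27 p53 and apoptosis genes and 87.2% of all genes with an end peak. Among 26 other acetyltransferase, deacetylase and reader genes, Hdac8, a class I deacetylase gene, was lost with 1017 and 1129 bp at its start in 6_1, and in pair 4 as well, from 1057 and 728 bp in 4_1. Of 11 blood and endothelial genes 3 had an end peak in more 6_1 and 1 in more 6_C4 libraries. Gata2, a haematopoietic factor gene, had 1653 and 1509 bp at its ends in 6_1 and 1339 and 0 bp in 6_C4. The cardiac list had 3 and 1 of 6, and the trophoblast and fibroblast lists, for cell types whose defining markers were mostly at 0, each had 4 and 1 of 11. Of 8 germ cell genes Tex19.1 was lost, with 1075 and 1202 bp in 6_1, while in pair 4 it was marked in the null clone (1170 and 1202 bp in 4_C2) and not in 4_1.

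**Figure D4:**
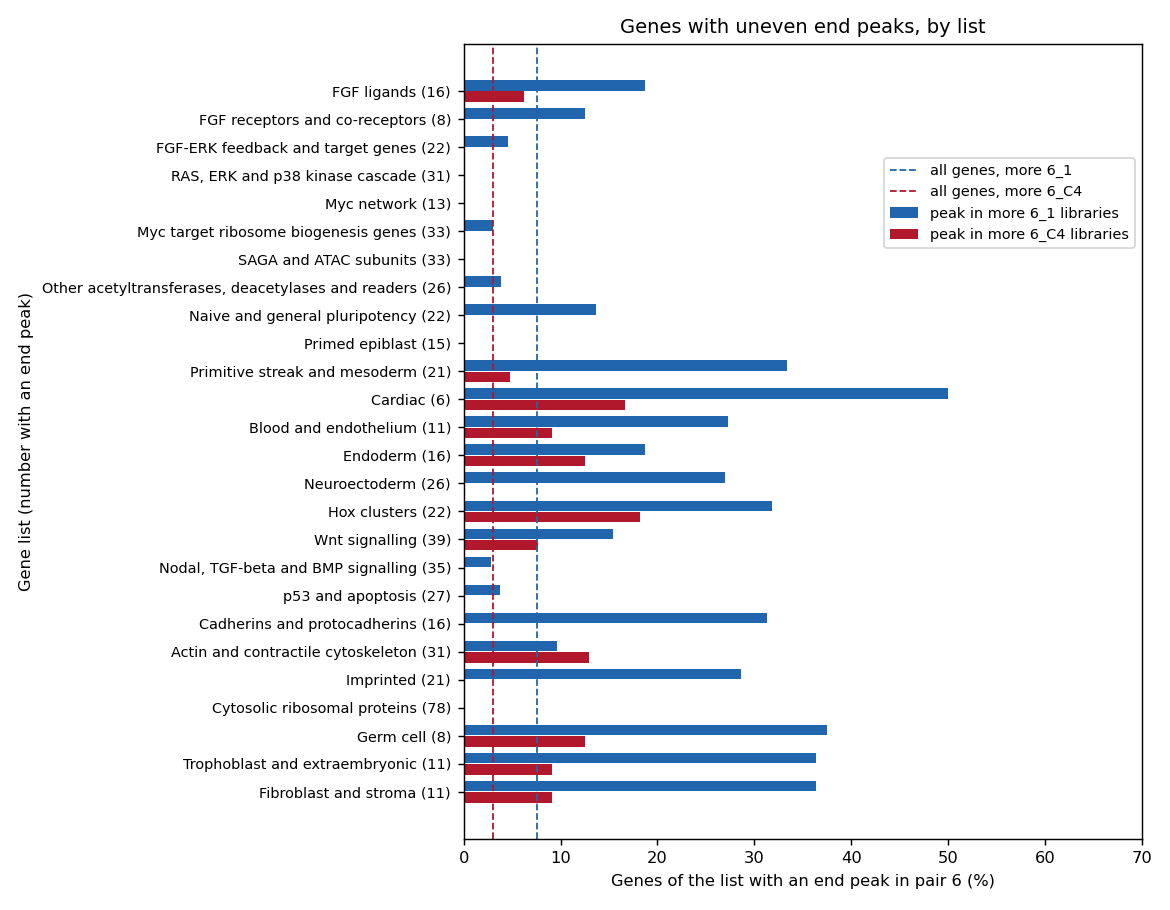
Percent of the genes of each list with an end peak that had it in more 6_1 (blue) or more 6_C4 libraries (red); dashed lines give the same over all 13454 genes (7.53% and 3.05%) and numbers in brackets the genes with an end peak. Bars are long for lineage lists and absent for Myc network, SAGA and ATAC, kinase cascade, primed epiblast and ribosomal protein genes.

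Gained regions were unevenly spread over the chromosomes. Chromosome 8 held 29 of the 217 gained regions (13.4%) but 6.76% of all regions and 7.09% of lost ones. Chromosome 11 held 27 (12.4%) against 8.93% of all regions. The emphasis on chromosome 8 was chosen after seeing the data. Leaving out each library in turn, it held between 8.70% and 10.8% of gained regions. The 29 lay between 25188540 and 124729469, 21 inside genes, 4 at gene ends and 4 outside genes, and 26 were in no pair 4 list. The widest were inside Gatad2a, a NuRD subunit gene (2918 and 1748 bp in 6_C4), Gse1 (2773 and 1807 bp) and Fbxo31, an F-box gene (2780 and 1416 bp). The 817 chromosome 8 regions in all 4 lists had a median centred log2 difference of -0.01.

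**Figure D5:**
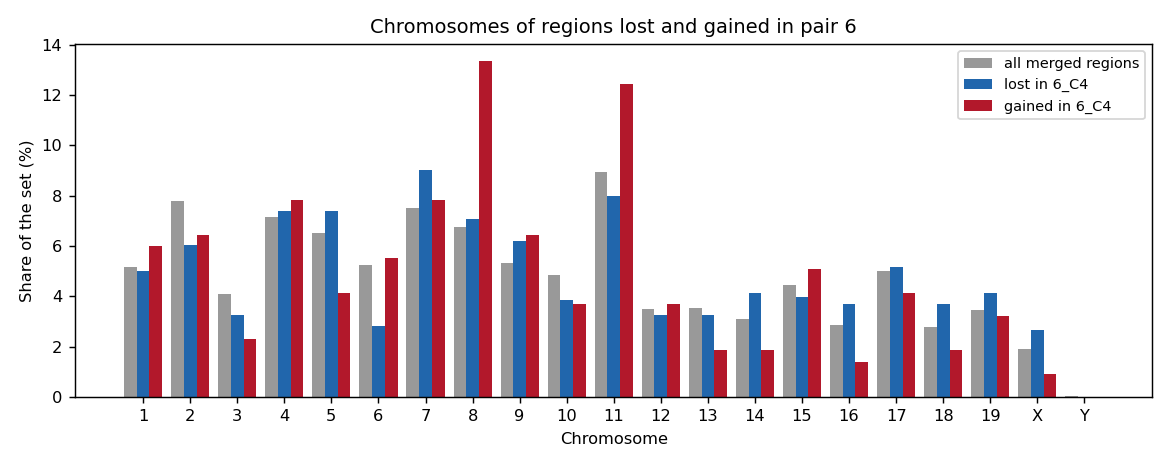
Share in percent of all merged regions (grey), regions lost in 6_C4 (blue) and regions gained in 6_C4 (red) on each chromosome. Gained regions stand highest on chromosome 8 (13.4% against 6.76% of all regions) and chromosome 11.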

How the data were processed

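The analysis used 4 H3K9ac peak lists, 2 of clone 6_1 and 2 of clone 6_C4, with the 4 lists of clones 4_1 and 4_C2 beside them; total H3 and input samples were not used here. Each list was deposited per library, as chromosome, start and end of the peaks with no score. Per the submitters' processing notes the tools were Bowtie 1.1.2 and MACS 1.4.2, on mm10. For peak threshold, filters and control the tool settings were not given in the sources used here. Since depth is unknown, no counting interval was possible, and lists from deeper libraries can hold more and longer peaks.

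Peaks overlapping by at least 1 bp were merged. Coordinates are on mm10, counted from 1. Gene ends were 1000 bp either side of both ends of 21887 protein-coding genes (RefSeq table of GRCm38.p6, no strand). RefSeq promoter entries matched 17492 of them (79.9%). Covered length per region, on the log2 scale and centred on library medians, entered limma 3.58.1 (R 4.3.3), and p-values were adjusted by Benjamini-Hochberg. Library summaries had exact permutation tests, two-sided. Limma was tested on simulated data; the noise and fold sizes simulated were revised after the first attempt recovered no region, so recovery rates are not given. Python 3.11.15, pandas 2.3.3, numpy 2.4.6 and matplotlib 3.10.9 were used.

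Members and lists were chosen with earlier results of these data known. Named genes were 16 single genes, the 15 lost and 10 gained genes with the largest mean covered length in their end windows, the 5 widest lost regions away from gene ends, the 6 regions per direction with the lowest limma p, up to 4 members of each list and up to 5 genes per direction by interaction p. Using end windows for that rank, the limit of 5000 bp, the 10 width groups, the split of covered length, the gamma cluster and the counts of broken and consecutive regions were chosen after seeing the data. Alternatives were leaving out each library, a replicate block, peaks of at least 1000 bp, lists of equal length, wider merging, 25% coverage, 500 bp windows, a pseudocount of 200 bp, other centring and, added later, RefSeq starts only.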

Additional observations from a re-analysis of the deposited data

Results flagged for a closer look

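Of 27 library measures looked at, 3 moved in opposite directions in the 2 isolate pairs, every null library of pair 6 lying on the other side of its floxed clone from those of pair 4. These differences between pairs were not tested, and groups of 2 are too small to look for single outlying libraries. The share of peaks on chromosome 8 was higher in 6_C4 than in 6_1 by 0.2102 percentage points (6.39% and 6.10% in 6_1, 6.49% and 6.41% in 6_C4), while in pair 4 it was 5.76% and 5.63% in 4_1 and 5.14% and 5.47% in 4_C2. The share on chromosome 2 was higher in 6_C4 by 0.0657 points (7.85% and 7.88% against 7.97% and 7.89%) and lower in 4_C2 (7.84% and 7.90% in 4_1, 7.76% and 7.81% in 4_C2). On chromosome 6 it was higher in 6_C4 by 0.0643 points (5.07% and 5.08% against 5.17% and 5.10%) and lower in 4_C2 (4.82% and 4.73% in 4_1, 4.50% and 4.47% in 4_C2). The gained regions, 13.4% of them on chromosome 8, are drawn from the same 6_C4 peaks and are no separate support. That share was 8.70% to 10.8% when each library was left out.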

How the results depend on the processing

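The lower covered length, median width and number of marked genes in 6_C4 kept their direction under every alternative run for them. These were leaving out each library, the replicate block, peaks of at least 1000 bp and, for marked genes, 500 bp windows. Lists of equal length were not run for these measures. The share of peaks at gene ends, 2.05 percentage points higher in 6_C4 (exact permutation p = 0.667), turned to -0.260 without 6_1 replicate 1 and reached 4.36 without 6_1 replicate 2. Leaving out a library relaxes the rule for presence, and over the 4 such settings lost regions ranged from 1137 to 3187, gained regions from 441 to 1581, lost genes from 287 to 444 and gained genes from 97 to 156. The lowest and highest lost regions came without 6_C4 replicate 2 and without 6_1 replicate 2, and gained regions exceeded lost ones only without 6_C4 replicate 2. Lists of equal length gave 66 gained genes, and RefSeq starts only, added after seeing the data, gave 110 lost and 32 gained genes. Peaks of at least 1000 bp gave 750 lost and 161 gained regions.

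Limma called 626 regions narrower and 210 wider when regions in at least 2 lists entered with a pseudocount of 200 bp (lowest adjusted p = 0.00565). Of these, 621 and 210 were lost or gained regions, whose null or floxed values are all 0 by construction, so those calls restate presence. The other fits called 0, with 43 to 1398 per direction at an unadjusted p under 0.05. The replicate numbers do not pair the libraries by the labels, and the deviations of same-numbered libraries correlated at r = 0.05 across 13976 regions. With the replicate block limma called 0 narrower and 0 wider, with 576 and 231 at an unadjusted p under 0.05. The interaction gave 0 calls except without 4_C2 replicate 1, where it gave 1.

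Among 26 single genes and regions, 19 of 284 centred log2 differences changed sign. Uncentred widths gave -0.105 for Mycn, -0.141 for Fgf5, -0.059 for Fgfr1, -0.069 for Spry2, -0.087 for Dusp6, -0.020 for Otx2 and -0.089 for Sox17, by the shift of -0.14 that centring removes. The median over FGF ligands, 0.00 with centring, was -0.141 without it and ranged from -0.170 to -0.033 when each library was left out, that over receptors from -0.0049 to 0.177 and that over feedback genes from 0.032 to 0.090. Lists of equal length gave -0.000497 for Fgf5. Leaving out each library in turn, the range was -0.201 to 0.035 for Kat2a, -0.567 to 0.338 for Kat2b, -0.326 to 0.071 for Fgf4, -0.033 to 0.037 for Fgf5, -0.0087 to 0.177 for Fgfr1, -0.050 to 0.164 for Dusp6, -0.619 to 0.113 for Pou5f1, -0.278 to 0.052 for Nanog and -0.141 to 0.25 for Sox17, and the cause was not tested. With 2 libraries per clone and unknown depth, the absence of a peak does not show the absence of H3K9ac.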

Other observations

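Some domains were broken into more peaks in 6_C4, with or without a shorter covered length. Counted after seeing the data, 115 of the 13976 regions in all 4 lists held 1 peak in both 6_1 libraries and at least 2 in both 6_C4 libraries, against 36 with the reverse. The widest were at Phc1, a Polycomb complex gene (11318 and 14170 bp in 6_1 and 12861 and 11410 bp in 6_C4), and Sall1, a zinc finger developmental gene (10919 and 12475 bp against 10617 and 11425 bp). The clones overlapped in covered length at both, while the number of peaks was 1 in each 6_1 library and 2 or 3 in each 6_C4 library. Another lay inside Rara, the retinoic acid receptor alpha gene (7837 and 8870 bp against 8103 and 6595 bp), where the clones also overlapped. At Srrt the covered length was lower in both null libraries as well (7658 and 9191 bp against 7040 and 7339 bp). The same held at Top3a and Smcr8 (8627 and 8107 bp against 7733 and 7434 bp).

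Lost regions next to each other were about as frequent as lost regions overall. There were 18 runs of 2 consecutive lost regions and 1 run of 2 gained ones. A lost region was thus followed directly by another in 2.66% of cases, near the 2.75% of all regions that were lost. The lost runs included Ccnd2, Jak2 with Insl6, Tead1, a Hippo pathway transcription factor gene, and 2 of the gamma protocadherins. The gained run lay at Il1r1 and Il1rl2, genes of interleukin 1 family receptors.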
